A study of Sus scrofa with 4 samples.

Results

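The genes described here build and run mitosis, the attachment of chromosomes to the spindle, and cytokinesis. The list held 60 genes chosen for these roles, and 33 of them had a probeset carrying their symbol alone on the porcine expression array, out of 6765 named genes in all. Each gene was represented by its brightest probeset, taken by mean log2 signal over the 4 arrays. Members were chosen by known role, with earlier results of these data known. The other 27 had no probeset under their own symbol in the annotation used and were not analysed here: MKI67, CDK1, BUB1, BUB1B, PLK4, TTK, TPX2, CENPA, CENPE, CENPK, CENPN, CENPU, SPC24, KIF11, KIF23, KIF2C, KIF4A, KIF22, ECT2, PRC1, ANLN, CDCA8, SMC2, NCAPG, NCAPH, NCAPD2 and ZWINT.

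In 2 pigs of the Duroc breed, used as a model of cutaneous fibrosis, back wounds of shallow and deep extent were biopsied at 20 weeks and fibroblasts were cultured from them. Total RNA came from confluent cultures of dermal cone fibroblasts kept in serum-containing medium, and each pig gave 1 shallow and 1 deep array. The comparison is of wound depth within an animal. Neither group had a treatment or a genetic change in the labels, there was no unwounded skin, and the sources used here give no age, sex or passage number. The p-values rest on 2 animals and on 1 culture per wound depth and animal.

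A cell that commits to division switches on a shared set of genes late in the cycle. Cyclins A and B activate the kinase CDK1, Polo-like and Aurora kinases build the spindle, and the kinetochore couples each centromere to spindle microtubules. The spindle checkpoint holds back the anaphase-promoting complex until all kinetochores are attached, after which that complex marks securin and cyclin B for destruction. The central spindle then directs a contractile ring that separates the daughters. Messenger RNA of these genes is scarce in resting cells, so in skin fibroblasts it serves as a gauge of how many cells are dividing. In RNA from a whole culture, fewer dividing cells and less of each RNA per cell cannot be told apart.

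Signals are MAS5 intensities on a linear scale. All 4 arrays shared a trimmed mean of 250.1 intensity units, with 2% of probesets left out at each end. Where signals of a gene are given in pairs, the first is that of pig 1 and the second that of pig 2. The shallow array of pig 1 stood apart. Markers of epithelial cells summed to 5760 units there, against 229 on the shallow array of pig 2 and 321 and 169 on the deep arrays, and all 8 of the measured markers were highest on it. CDH1 and EPCAM, defining genes of epithelium, were among them. All 9 measured fibroblast markers, collagen and decorin genes among them, were above the absent-transcript controls on every array. They summed to 29890 and 38386 units in shallow and to 52881 and 70247 in deep cultures, and all 9 read higher on both deep arrays than on either shallow array. Smooth muscle and pericyte markers summed to 654 and 1148 units in shallow and to 4696 and 3410 in deep cultures, mostly through ACTG2, smooth muscle gamma actin, at 492 and 717 in shallow and 4269 and 2914 in deep. The pericyte marker RGS5 did not follow it, at 50.7 and 336 in shallow and 187 and 218 in deep. The actin 3'/5' signal ratio rises as RNA or its labelled copy shortens. It was 1.96 and 2.41 for shallow cultures but 3.28 and 6.10 for deep cultures, although the labels describe all RNA as of high integrity. The same ratio for GAPDH differed less, at 1.53 and 1.67 for shallow and 1.75 and 2.06 for deep cultures. The 28S ribosomal RNA signal was 1351 and 1836 for shallow but 3462 and 7621 for deep cultures. Hybridization controls averaged 2446 and 2817 for shallow but 3356 and 7652 for deep cultures. Each of these measures was thus highest for the deep culture of pig 2. Because of its epithelial markers, the mean differences of single genes are also given without the shallow array of pig 1, at the end of each role.

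All 33 measured genes had lower signals in deep than in shallow cultures in both pigs, as had 30.7% of all named genes, and for all 33 both deep arrays lay below both shallow arrays. Over all named genes 24.9% lay that way. The median log2 difference, deep minus shallow, was -1.95 over the 33 genes, a 3.88-fold lower level, against -0.015 over all named genes. The size differed between the animals. The median was -2.70 in pig 1, a 6.51-fold lower level, and -0.98 in pig 2, a 1.98-fold lower level. With 1 array per depth and animal, this difference between the pigs could not be tested. A signal at least 2-fold lower was found for 32 genes in pig 1, against 12.0% of all named genes, and for 16 in pig 2, against 7.44%. Those 16 were at least 2-fold lower in both pigs, as were 2.26% of all named genes. With the highest absent-transcript control in place of lower signals, the number was 13. A lower signal in both pigs with a larger fall in pig 1 was found for 32 of the 33, against 18.9% of all named genes. All 33 met the first condition, but only 2075 of the 6765 named genes did. Of those 2075 genes, 1277 fell more in pig 1 than in pig 2.

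Few of these differences passed a test of single genes. With limma and the pig as a block, p-values being adjusted over the 14399 probesets past a filter on dim signals, 2 of the 30 members past that filter fell in deep cultures and 0 rose. The calls were CENPF and RACGAP1. Among all probesets tested 0.104% were called lower and 0.236% higher. The filter took the mean over all 4 arrays, so a gene bright in shallow cultures alone could pass it, and CDC25C, SPC25 and KIF20A did not pass. Without the block, all 4 arrays gave 0 calls among the members and 0 among all 14399 probesets. Fits on 3 arrays cannot hold the block, for lack of residual degrees of freedom. They leave 1 array at a depth, so their calls are not counted here. The median difference of the 33 genes was -1.12 without pig 1's shallow array and -2.78 without pig 2's. It was -1.77 without pig 1's deep array and -1.99 without pig 2's. Before any adjustment, 29 of the 30 had a p under 0.05 in the lower direction, as had 6.92% of all probesets tested, and BUB3 was the exception.

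**Figure D1:**
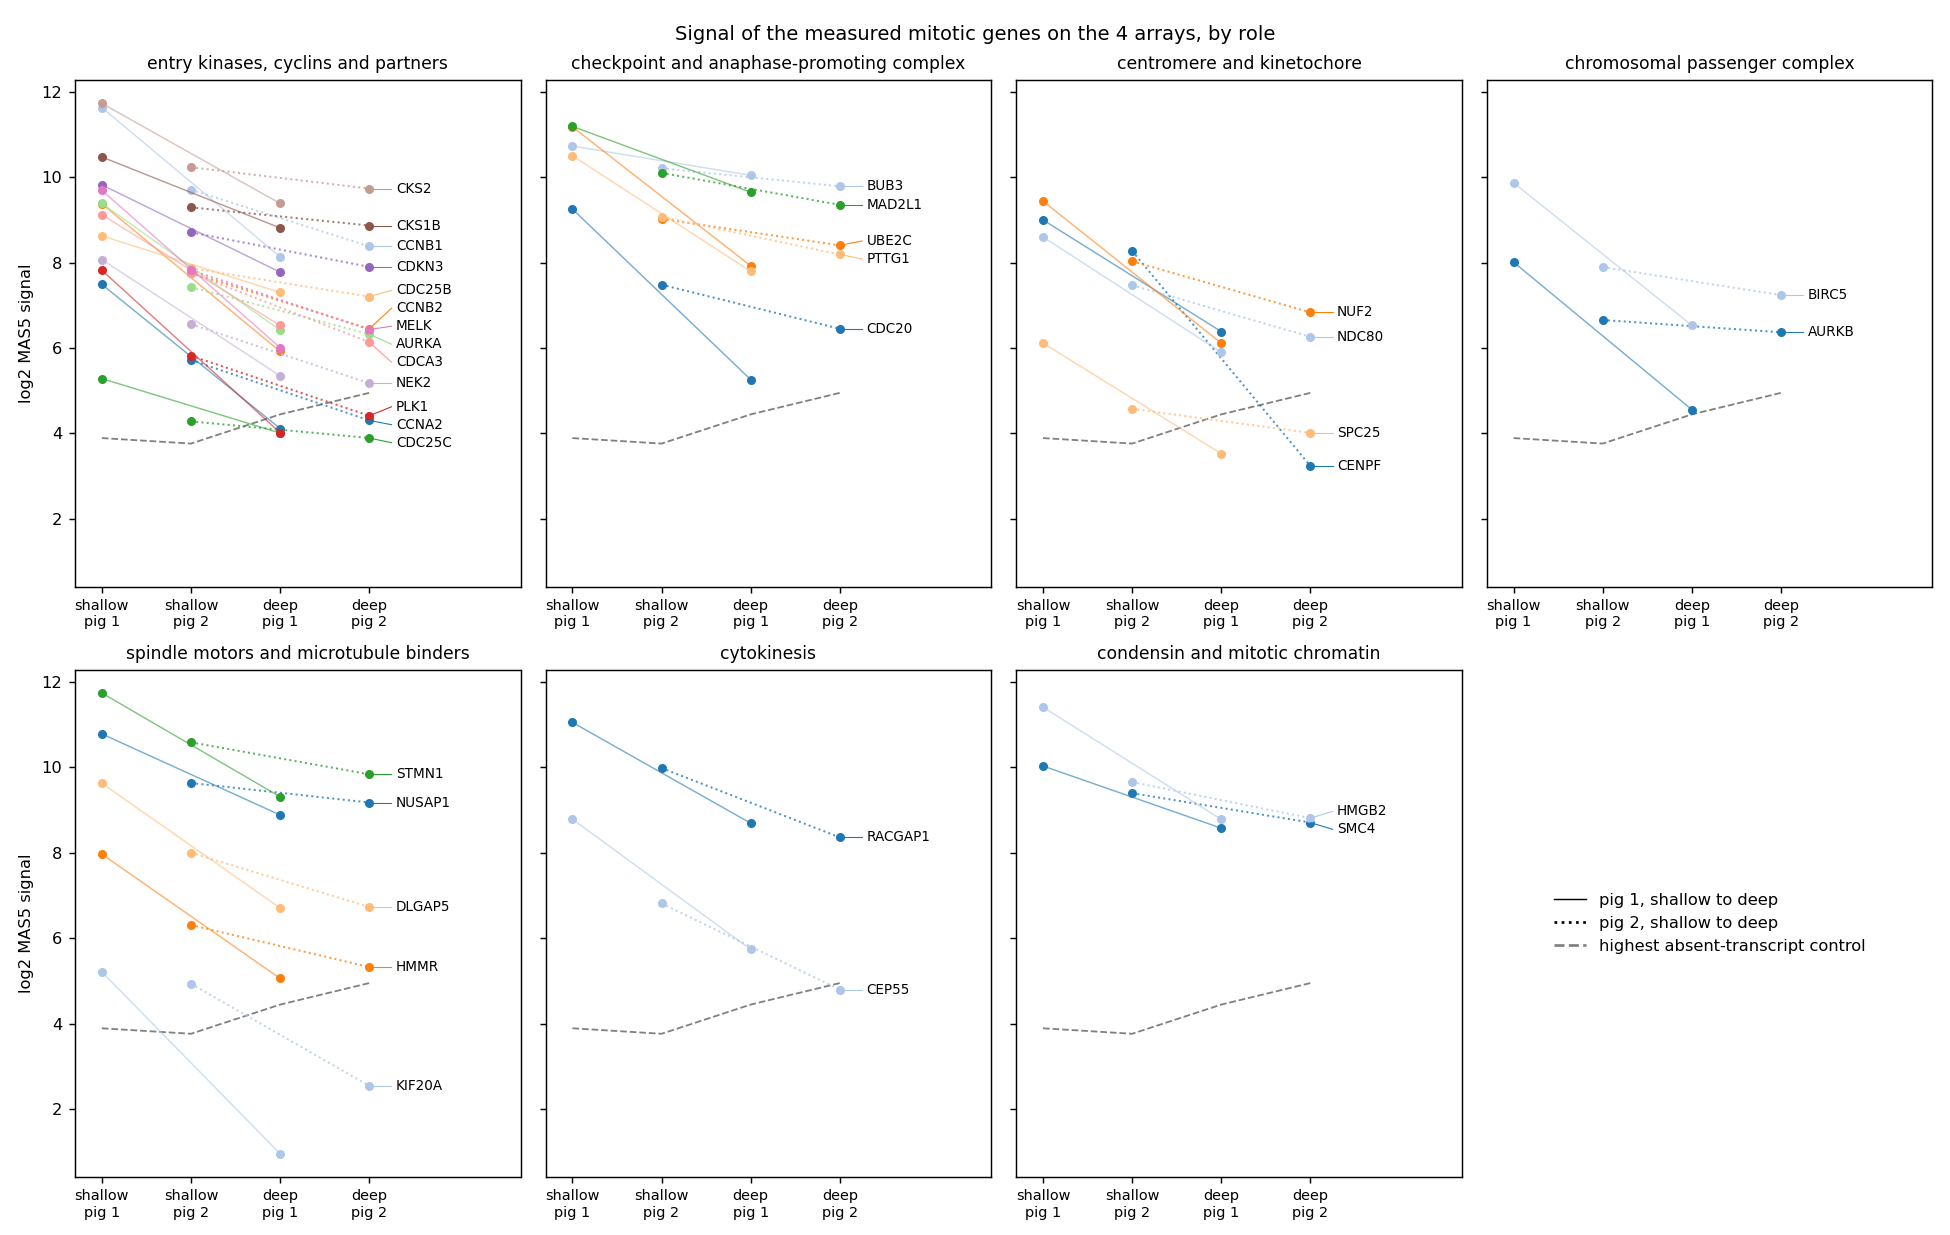
Signal of each of the 33 measured genes on the 4 arrays, on a log2 scale and in a panel for each role. Solid lines join the shallow and deep arrays of pig 1, dotted lines those of pig 2, and the dashed grey line is the highest control for absent transcripts on each array. In every panel the shallow array of pig 1 is the highest and the shallow array of pig 2 the next.

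The shallow arrays themselves differed. For 33 of 33 genes the shallow array of pig 1 was the highest of the 4 and the shallow array of pig 2 came next, above both deep arrays, an order shown by 19.3% of all named genes. The median over genes of the ratio of pig 1 to pig 2 on the shallow arrays was 2.69, and 28 of the 33 genes were at least 2-fold higher there, against 9.64% of all named genes. In log2 terms the median step between the shallow arrays was -1.43, pig 2 minus pig 1, which was larger than the median of -0.98 between depths in pig 2. The deep arrays lay closer together, with a median difference of 0.24, pig 2 minus pig 1. Of the 33 genes, 7 differed at least 1.5-fold between them, a share near the 29.7% of all named genes, dim ones included.

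**Figure D2:**
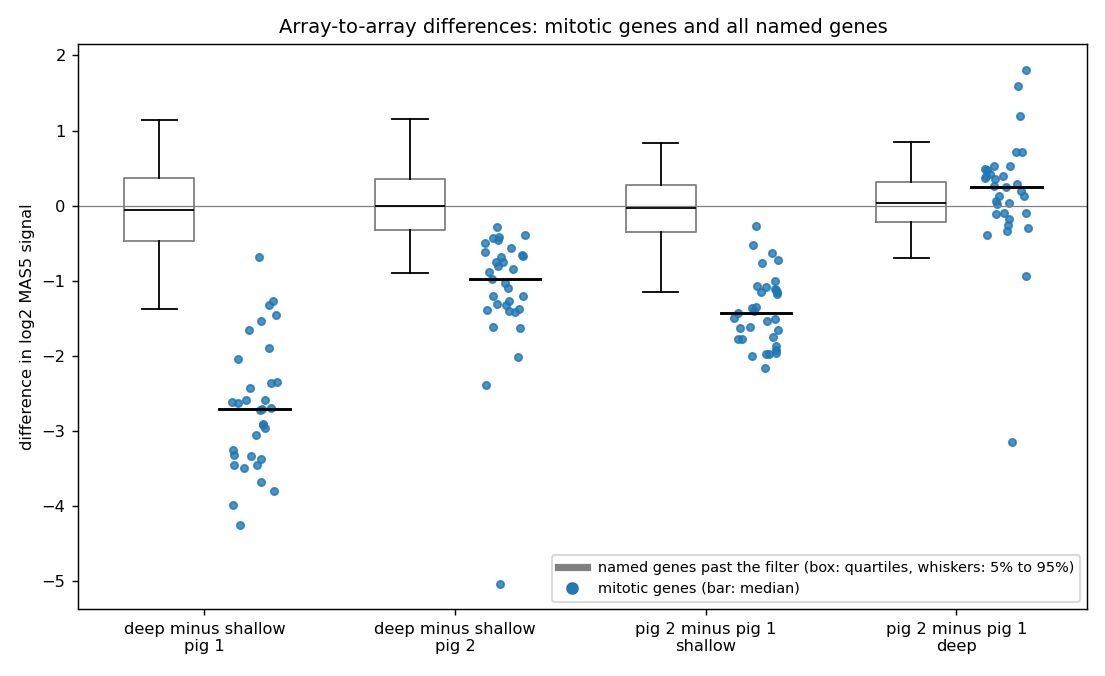
Differences in log2 signal between arrays for the 33 mitotic genes (blue points, black bar at their median) and for the 5272 named genes past the filter (boxes at the quartiles, whiskers at the 5th and 95th percentiles). The medians of the mitotic genes are -2.70 and -0.98 between depths, -1.43 between the shallow arrays and 0.24 between the deep arrays.

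Within each pig the epithelial sum was lower in deep than in shallow cultures, while the fibroblast sum was higher. Between pigs the epithelial order differed from that of the mitotic genes. The epithelial sum was 321 units for pig 1's deep culture and 229 for pig 2's shallow culture. All 33 mitotic genes read higher in the latter. The shallow array of pig 1 carried both the epithelial markers and the highest mitotic signals, and the part of epithelial cells in the pig 1 difference was not tested. In pig 2 the epithelial sum was 229 in shallow and 169 in deep, of which KRT8 alone gave 132 and 95.1. There 3 of the 8 markers in shallow and 2 in deep were above the absent controls. The part of epithelial cells in the pig 2 difference was not tested either. The part of the higher fibroblast and smooth muscle marker signals of deep cultures in the result was not tested. Without the shallow array of pig 1 the median difference was -1.12, with all 33 genes still lower on both deep arrays than on the remaining shallow array. For 21 of the 33 the fold moved by over 1.5 times. The actin ratio, the 28S signal and the hybridization controls were higher on both deep arrays, and their part in the result was not tested either. Between the deep arrays the actin ratio was 3.28 and 6.10, and 23 of the 33 genes were higher on the second, against 55.6% of all named genes. That sets 1 array of each pig against the other, so ratio and animal cannot be told apart.

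Cyclins and the kinases of mitotic entry showed some of the widest differences. Cyclin B1, CCNB1, the main partner of CDK1 at entry into mitosis, read 3169 and 836 in shallow cultures and 281 and 333 in deep cultures. Its log2 difference was -2.41 ± 0.47 (SE; limma, adjusted p = 0.0818), from -3.49 in pig 1 and -1.33 in pig 2. Cyclin B2, CCNB2, read 665 and 217 in shallow and 60.6 and 87.4 in deep, with nearly the same differences of -3.46 and -1.31. The order of the arrays was the same for both cyclins, and the deep arrays were within 1.44-fold of each other.

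Cyclin A2, CCNA2, which acts in S phase and early mitosis, read 179.7 and 52.6 in shallow and 17.3 and 19.8 in deep. Both deep signals were below the highest absent-transcript control of their array, 21.8 for pig 1 and 30.9 for pig 2. With those controls in place of its signal, CCNA2 was at least 8.24-fold lower in pig 1 and at least 1.70-fold lower in pig 2. The same held for the Polo-like kinase PLK1, a driver of spindle assembly and mitotic exit, which read 226 and 56.5 in shallow and 16.2 and 21.3 in deep. It was at least 10.4-fold lower in pig 1 and at least 1.83-fold lower in pig 2. For both genes the deep level is thus only bounded from above, and neither passed the test (limma, adjusted p = 0.119 for CCNA2 and 0.118 for PLK1).

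MELK, a kinase expressed in proliferating cells, read 827 and 226 in shallow and 64.4 and 86.4 in deep, a difference of -2.54 ± 0.51 (limma, adjusted p = 0.0890). AURKA, the Aurora kinase of centrosomes and spindle poles, read 668 and 172 in shallow and 85.7 and 80.1 in deep (-2.03 ± 0.45). The deep signals of AURKA were nearly equal in the pigs while its shallow signals were 3.89-fold apart. NEK2, a kinase that separates centrosomes, read 269 and 94.3 in shallow and 40.8 and 36.2 in deep (-2.05 ± 0.44). CDCA3, which promotes removal of the mitotic inhibitor WEE1, read 557 and 217 in shallow and 92.3 and 70.5 in deep. Its difference of -2.11 ± 0.36, from -2.59 and -1.62 in the pigs, missed the threshold (limma, adjusted p = 0.0646).

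Other genes of this role differed less. CDKN3, a phosphatase that acts on cyclin-dependent kinases, read 904 and 418 in shallow and 219 and 239 in deep (-1.43 ± 0.35). The small CDK-binding subunits CKS2 and CKS1B read 3392 and 1203, and 1421 and 627, in shallow cultures, and 668 and 851, and 449 and 467, in deep cultures. Their pig 1 differences were -2.34 and -1.66 and their pig 2 differences -0.50 and -0.43, so most of the contrast lay in pig 1. CDC25B, a phosphatase that activates CDK1, read 395 and 234 in shallow and 158 and 147 in deep (-0.99 ± 0.32). Its relative CDC25C was dim throughout, at 39.0 and 19.5 in shallow, and both deep signals, 16.1 and 14.9, were below the absent controls. Without pig 1's shallow array the mean differences of this role were smaller in size: -1.45 for CCNB1, -1.58 for CCNB2, -1.60 for MELK, -1.43 for CDCA3, -1.30 for NEK2 and -1.05 for AURKA. They were -0.87 for CDKN3, -0.67 for CKS2, -0.62 for CDC25B and -0.45 for CKS1B, while CCNA2 (-1.51), PLK1 (-1.60) and CDC25C (-0.33) rest on deep signals below the controls.

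Among genes of the spindle checkpoint and the anaphase-promoting complex, 5 of 9 were measured and 1 was at least 2-fold lower in both pigs. That gene was CDC20, the activator of the complex, which read 610.1 and 179 in shallow and 38.4 and 87.5 in deep. Its pig 1 difference of -3.99 was the lowest of any member past the filter, its pig 2 difference was -1.03, and the mean was -2.51 ± 0.62 (limma, adjusted p = 0.137). UBE2C, the ubiquitin-conjugating enzyme of the complex, read 2317 and 519.9 in shallow and 243 and 339 in deep (-1.94 ± 0.54). The shallow arrays were 4.46-fold apart for UBE2C, the widest gap between them among the 33 genes. PTTG1, securin, which restrains the enzyme that cuts cohesin, read 1448 and 538 in shallow and 222 and 292 in deep (-1.79 ± 0.42).

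Within this role the checkpoint proteins themselves differed least. MAD2L1, which binds and holds CDC20, read 2333 and 1097 in shallow and 803 and 654 in deep, a difference of -1.14 ± 0.30. BUB3, an adaptor for the BUB kinases, read 1696 and 1181 in shallow and 1055 and 883 in deep. At -0.55 ± 0.27 (95% interval -1.17 to 0.06) BUB3 had the smallest difference of the 33 genes, although its arrays stood in the same order as those of the rest. Without pig 1's shallow array the differences were -1.63 for CDC20, -1.08 for PTTG1, -0.86 for UBE2C, -0.60 for MAD2L1 and -0.29 for BUB3.

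At the kinetochore, CENPF, a large protein that gathers there in late G2 and mitosis, fell in deep cultures. It read 511 and 309.5 in shallow and 83.6 and 9.45 in deep, with a difference of -3.82 ± 0.55 (limma, adjusted p = 0.0453). It was the only gene of the 33 whose difference was larger in pig 2, at -5.03, than in pig 1, at -2.61. The deep signal of pig 2 was below that array's highest absent control of 30.9, so the fall was at least 10.0-fold there and at least 7.83-fold over both pigs. CENPF was not called once the block was dropped on all 4 arrays (limma, adjusted p = 0.243). On 3 arrays, also with no block, its difference was -2.25 without pig 2's deep array (adjusted p = 0.939) and -5.40 without pig 1's deep array (adjusted p = 0.164). It was -3.46 without pig 1's shallow array (adjusted p = 0.0190) and -4.19 without pig 2's.

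NDC80 and NUF2 form a dimer that grips microtubules at the outer kinetochore, and their profiles ran in parallel. NUF2 read 695 and 262 in shallow and 69.3 and 114 in deep (-2.26 ± 0.48). NDC80 read 388 and 178 in shallow and 59.7 and 76.8 in deep (-1.95 ± 0.42). Both had the same adjusted p of 0.0973 (limma) and pig 2 differences of -1.20 and -1.21. SPC25, which anchors that dimer to the inner kinetochore, was dim, at 69.4 and 23.8 in shallow and 11.5 and 16.1 in deep, with both deep signals below the absent controls. Without pig 1's shallow array the differences were -1.56 for NUF2 and -1.39 for NDC80, and -0.81 for SPC25 on signals below the controls.

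The chromosomal passenger complex corrects faulty attachments and then moves to the central spindle. Its kinase AURKB read 258 and 101 in shallow and 23.6 and 82.6 in deep, and its survivin subunit BIRC5 read 934 and 238 in shallow and 92.5 and 151 in deep. In pig 1 they differed by -3.45 and -3.34, in pig 2 by only -0.29 and -0.66. AURKB had the smallest pig 2 difference of the 33 genes, and its deep signals were 3.51-fold apart, the largest gap upwards from pig 1 to pig 2. The mean difference of AURKB was -1.87 ± 0.67, and neither gene passed the test (limma, adjusted p = 0.269 and 0.176). They differed by -1.19 and -1.01 with pig 1's shallow array left out.

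**Figure D3:**
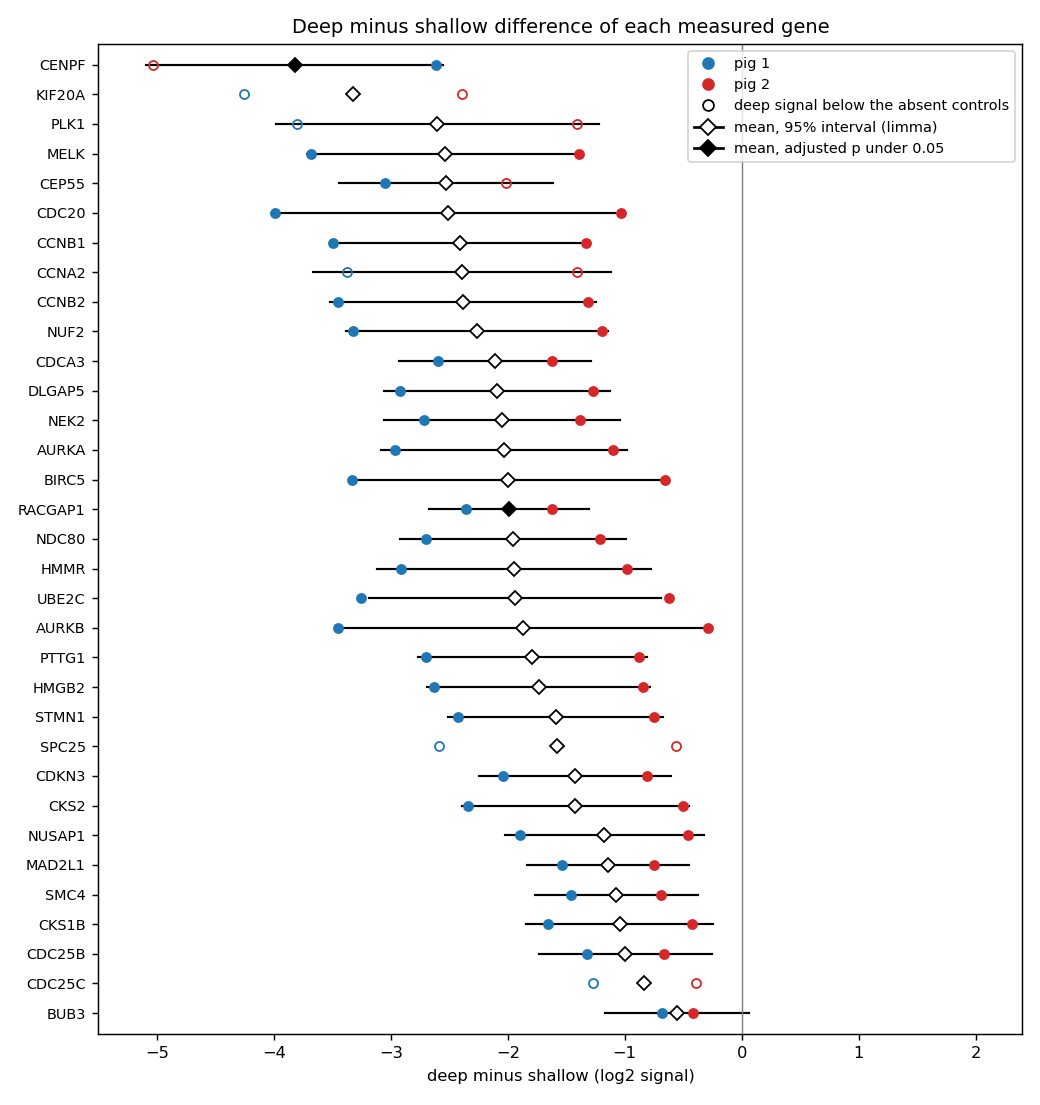
Deep minus shallow difference in log2 signal for each of the 33 genes, ordered by the mean, with pig 1 in blue and pig 2 in red. Open circles mark a deep signal below the absent controls, bars are 95% intervals of the limma fit for the 30 genes past the filter, and filled diamonds mark the 2 genes past the threshold, CENPF and RACGAP1.

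Spindle proteins followed the same order of arrays. DLGAP5, which stabilises microtubules at kinetochores, read 791 and 256 in shallow and 105 and 106 in deep (-2.09 ± 0.42, limma, adjusted p = 0.0863). HMMR, a spindle protein also known as a hyaluronan receptor, read 251 and 79.3 in shallow and 33.4 and 40.1 in deep (-1.95 ± 0.51). STMN1, stathmin, which destabilises microtubules, read 3425 and 1537 in shallow and 636 and 915 in deep (-1.59 ± 0.40). For these genes the deep arrays were within 1.44-fold of each other. NUSAP1, which bundles spindle microtubules, read 1762 and 795 in shallow and 473 and 579 in deep, with -1.90 in pig 1 and -0.46 in pig 2. KIF20A, a kinesin of the central spindle, was dim, at 37.0 and 30.6 in shallow and 1.94 and 5.83 in deep. Its deep signals were below the absent controls, and in pig 2 that control, 30.9, exceeded even the shallow signal, so no fold is given. The same control also exceeded the pig 2 shallow signals of CDC25C and SPC25. Without pig 1's shallow array the differences were -1.28 for DLGAP5, -1.12 for HMMR, -1.01 for STMN1 and -0.60 for NUSAP1, and -3.18 for KIF20A on signals below the controls.

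RACGAP1 and CEP55, the 2 measured genes of cytokinesis, were each at least 2-fold lower in both pigs. RACGAP1 is the GTPase-activating subunit of centralspindlin, which positions the contractile ring, and it fell from 2124 and 1013 in shallow to 414 and 329 in deep. The difference was -1.99 ± 0.30 (limma, adjusted p = 0.0469), from a 5.13-fold lower level in pig 1 and a 3.08-fold lower level in pig 2. Its signals were above the absent controls on all arrays. RACGAP1, too, was not called once the block was dropped on all 4 arrays (limma, adjusted p = 0.176). On 3 arrays with no block, its difference was -1.46 without pig 1's shallow array (adjusted p = 0.0101) and -2.53 without pig 2's. It was -2.16 without pig 1's deep array and -1.83 without pig 2's (limma, adjusted p = 0.268 and 0.939). CEP55, which recruits the abscission machinery to the midbody, read 442 and 113 in shallow and 53.4 and 27.8 in deep. It was 8.27-fold lower in pig 1 and, with its deep signal below the control, at least 3.64-fold lower in pig 2 (limma, adjusted p = 0.0558). Without pig 1's shallow array CEP55 differed by -1.55, with the deep signal of pig 2 below its control.

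Of the condensin and chromatin genes only SMC4 and HMGB2 were measured. HMGB2, a DNA-bending chromatin protein, read 2722 and 807 in shallow and 440.0 and 449 in deep, a difference of -1.74 ± 0.41. SMC4, an ATPase subunit of condensin, read 1047 and 674 in shallow and 382 and 418 in deep (-1.07 ± 0.30). The deep signals of both were nearly equal in the pigs, and neither gene passed the test (limma, adjusted p = 0.130 and 0.176). They differed by -0.86 and -0.75 without pig 1's shallow array.

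**Figure D4:**
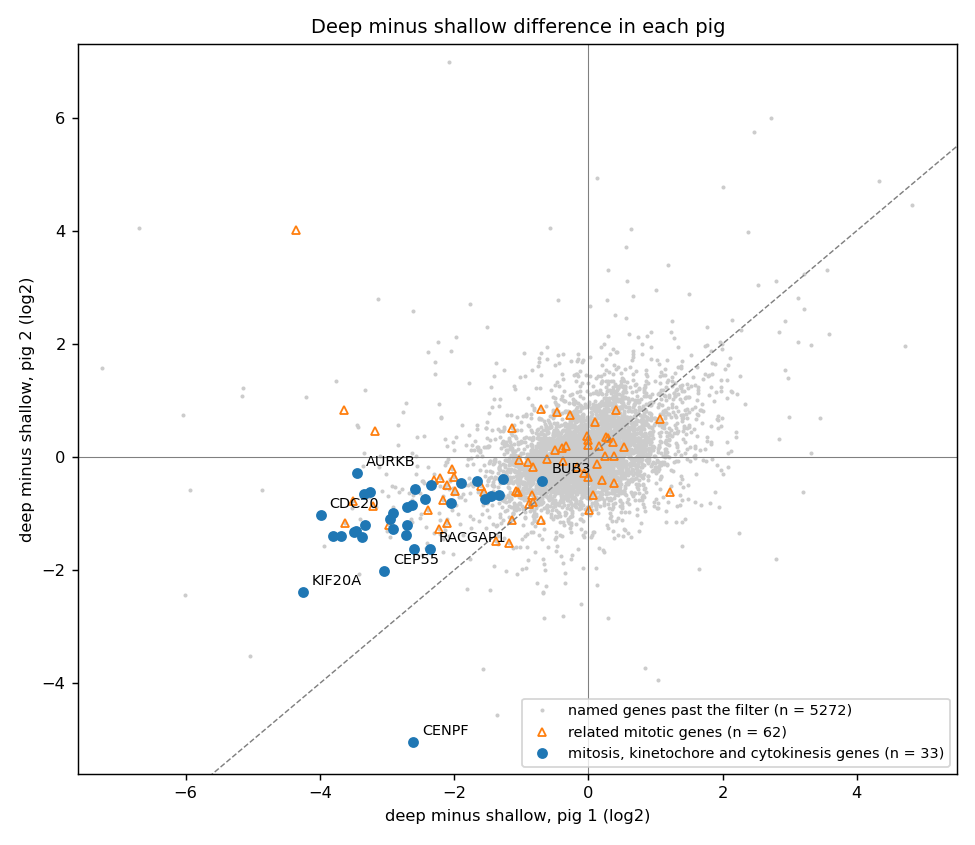
Deep minus shallow difference in pig 1 (horizontal axis) and pig 2 (vertical axis), both in log2 signal, for the 33 mitotic genes (blue circles), 62 related mitotic genes (orange triangles) and the 5272 named genes past the filter (grey). The dashed line marks equal differences. All 33 mitotic genes lie below 0 on both axes, and 32 lie above the dashed line, with CENPF below it.

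A gene listed under several probesets did not always read alike. Of the 33 genes, 6 had more than 1, which gave 7 further probesets. The second probesets of NUSAP1 and SMC4 were lower in deep in both pigs, with pig 1 differences of -1.92 and -1.10 and pig 2 differences of -0.23 and -0.37. That of DLGAP5 had both deep signals below the absent controls and was at least 11.2-fold lower in pig 1 and at least 2.26-fold lower in pig 2. The second probeset of AURKA differed by -3.02 in pig 1 and by 0.07 in pig 2. That of UBE2C was at least 1.58-fold lower in pig 1, with a deep signal below the control, and differed by 0.37 in pig 2. Both further NEK2 probesets were dim, each with 2 of 4 signals below the controls. The brighter of them read higher on both deep arrays than on either shallow array. Its pig 1 difference was 0.53, on signals above the controls, while both pig 2 signals were below the controls. The dimmer had both deep signals below the controls, and no difference is given for it. With the dimmest named probeset in place of the brightest, both deep arrays lay below both shallow arrays for 30 of the 33 genes.

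For the brightest probesets of the 33 genes, signals below the absent-transcript controls were confined to the deep arrays. On the shallow arrays 0 of the 33 genes were below the highest of the 23 controls, which read 14.8 and 13.6. On the deep arrays, where it read 21.8 and 30.9, 5 genes were below it in pig 1 and 7 in pig 2. The 7 were CCNA2, PLK1, CDC25C, SPC25, KIF20A, CENPF and CEP55, the last 2 in pig 2 alone. Over all named genes 24.6% were below the control on at least 1 array. With the control in place of every lower signal the median difference of the 33 genes was -1.94, and the number with both deep arrays below both shallow arrays was 30. CDC25C, SPC25 and KIF20A dropped out, so a lower deep level in pig 2 is not shown for them.

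A further list of 142 symbols of genes with a role in mitosis was taken for comparison, some genes being listed under an older and a newer symbol. Of these, 62 were measured and 57 were past the filter. The arrays were less uniform here: 30 of 62 had both deep arrays below both shallow arrays, against 24.9% of all named genes. A further 9 had them above, against 23.7%, and the median difference was -0.40. Both deep arrays lay above in 6 of the 9 genes of cytokinesis and abscission and below in 1, with a median difference of 0.30. Among the 12 kinetochore and centromere genes they lay below in 9 and above in 0. None of this second list passed the threshold in either direction (limma, smallest adjusted p = 0.0797). An unadjusted p under 0.05 was found for 23 lower and 1 higher, against 6.92% and 6.94% of all probesets tested. The largest differences were -2.39 ± 0.53 for LMNB1, the nuclear lamin B1, -2.15 ± 0.55 for TOP2A, which untangles chromosomes, and -2.09 ± 0.42 for MYBL2, a transcription factor of late cell-cycle genes. SKA1 and ZWILCH, kinetochore proteins, differed by -2.04 ± 0.53 and -1.75 ± 0.36, and TRIP13, which resets MAD2, by -1.67 ± 0.43. TOP2A read 1979 and 606 in shallow and 174 and 351 in deep, and MYBL2 read 1211 and 337 in shallow and 154 and 146 in deep, the same order of arrays as the 33 genes.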

How the data were processed

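Per the labels, RNA of 4 fibroblast cultures was hybridized to a porcine Affymetrix array. The deposited values are linear MAS5 signal intensities (tools MAS5 and GCOS 1.0, as named in the submitters' processing notes), which the authors had scaled per array. Of 24123 probesets, 124 controls were left out. Signals under 1 were set to 1 (2547 of 95996 values) before taking log2. The 14399 probesets whose mean log2 reached the 40th percentile (signal 27.1) were tested. In place of detection calls, 23 controls for absent transcripts gave the background. In the platform annotation 10069 probesets have 1 symbol, 198 have several and 13732 have none.

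Wound depths were compared in limma 3.58.1 under R 4.3.3 (lmFit, then eBayes with trend), blocked by pig, since the series describes paired wounds. Titles name each array's partner by sample number, read here as the listing order. Same-pig deviations from the mean of each depth correlated at -0.01, so the pairing rests on the design. Adjustment was by Benjamini-Hochberg, with a threshold of 0.05. The fit was tested on simulated data. Arrays have no read depth, and with 4 of them their number limits precision. Members and lists were chosen with earlier results of these data known. All measured members are named. Of the second list, those past the threshold and the 6 largest differences past the filter are named. Alternatives were no block, crossed pairing, no filter, a floor of 16, quantile normalization, median centring, the dimmest probeset, absent controls as floor and each array left out.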

Additional observations from a re-analysis of the deposited data

How the results depend on the processing

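The 33 genes kept a lower mean in deep under all settings run, and for all 33 both deep arrays lay below both shallow arrays except with the dimmest probeset or the absent controls as floor (30 each). With 1 array left out, both results follow from the order of the 4 arrays and test nothing further. The median difference ranged from -2.78 to -1.12 when 1 array was left out, and the count at least 2-fold lower in both pigs, which needs complete pairs, from 13 to 17 in the settings that keep the pairs (23 for the crossed pairs). The number of calls did depend on the processing. Without the pig as replicate block it was 0 of the members (smallest adjusted p = 0.176), with pairs crossed as the replicate block it was 16, with 4 of the second list. It was 0 without the filter and 0 with a floor of 16 (smallest adjusted p = 0.0549), and 4 with quantile normalization. Calls over all probesets tested moved too, from 49 in the main fit to 202 with crossed pairs and 93 with quantile normalization. They were 0 without the block, 0 without the filter and 6 with a floor of 16, both directions counted. With 1 array left out, in fits without the block where the lone array is assumed to vary like the others, calls ranged from 0 to 29 lower among the members, and in the second list from 0 to 22 lower and 0 to 1 higher. The cause was not tested. Signal over background limits the 7 genes below the absent controls, whose deep levels are upper bounds.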
